A study of Mus musculus with 6 samples.

Results

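Car4 and Aqp4 encode a bicarbonate-forming enzyme and a water channel of gut epithelium, and they are 2 of the 1386 genes in a table of transcripts that the authors listed as differing between mice dosed with the mucin-degrading bacterium Akkermansia muciniphila (Akk) and mice dosed with PBS. Both were found by gene name. They stand in the table because of the same Akk and PBS values that are described here, so their levels are given as a description with no test. Intestinal epithelial cells came from wild-type mice on regular chow, which received 400000000 Akk bacteria daily by mouth for 7 weeks from 8 weeks of age, or PBS in the same way. Each group has 3 libraries with replicate numbers 1 to 3. Whether every library stands for a separate mouse is not stated in the labels, so the spread between libraries may in part be technical. The labels also name no gut segment, although the title of the series speaks of the jejunum.

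Carbonic anhydrases are zinc enzymes that interconvert carbon dioxide and bicarbonate, and the Car4 product is held on the outer face of the plasma membrane by a lipid anchor, where it supplies exchangers of sodium, protons, chloride and bicarbonate. Aquaporins are membrane pores for water. The Aqp4 product is best known from astrocytes and also lies in the basolateral membrane of gastric parietal cells and of surface cells of the mouse colon. Car4 and Aqp4 are both used as markers of mouse colonic epithelium. In bulk RNA, fewer cells of a type and less RNA per cell cannot be told apart.

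The depth implied by the ratio of counts to FPKM (fragments scaled by gene length and by sequencing depth) was 23463925 to 29253852 fragments per library. PBS replicate 2 differed from the other 5 libraries, with the top value in 1022 of the 1040 genes that the table marks as lower in Akk. Of 14 crypt and proliferation markers (Slc12a2 among them) 9 were listed, with a summed FPKM of 13.1 to 18.0 in Akk, and of 28.3, 790 and 29.1 in PBS replicates 1 to 3. Of 11 Paneth cell markers 9 were listed, with a summed FPKM of 161 to 192 in Akk, and of 205, 8481 and 232 in PBS replicates 1 to 3. Of 8 pancreatic markers only Clps was listed. It had 2.27 to 2.45 FPKM in Akk, and 1.24, 66.1 and 1.56 FPKM in PBS replicates 1 to 3. In PBS replicate 2 it had 47.2 times the mean of PBS replicates 1 and 3. The median of that ratio was 34.8 over the 9 listed Paneth cell markers. Which cells the Clps RNA came from was not tested. The part of these cell types in the Car4 and Aqp4 values was not tested. The main results on Car4 and Aqp4 are therefore given with and without PBS replicate 2. No marker of enteric glia (6 genes), capillary endothelium (7), gastric parietal cells (4), smooth muscle (6) or leukocytes (12) was listed, and the levels of unlisted genes were not analysed here. Of 10 epithelial markers Krt19, a keratin, was the single listed gene, so the labelled cell type could not be checked further. Krt19 had 143, 137 and 162 FPKM in Akk replicates 1 to 3, against 388, 880 and 305 FPKM in PBS replicates 1 to 3. Its log2 fold change was -1.83 (SE 0.49), and -1.23 (SE 0.20) without PBS replicate 2. In that setting it passed the edgeR test as lower, as 17.7% of all listed genes did, while 0 genes passed with all 6 libraries. The listed genes had been selected on these libraries, so the pass gives no separate support. The part of Krt19 in the Car4 and Aqp4 values was not tested.

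Car4 (ENSMUSG00000000805, chromosome 11, 84957786 to 84966044, plus strand, GRCm38) was abundant in every library and lower in all 3 Akk libraries. Its FPKM was 88.4, 119 and 171 in Akk replicates 1 to 3, against 265, 330 and 302 in PBS replicates 1 to 3. The highest Akk library lay below the lowest PBS library by 1.55-fold, so the groups did not overlap. The means were 126 ± 42.0 FPKM in Akk and 299 ± 32.4 FPKM in PBS (SD, n = 3 each), a level 2.37-fold lower in Akk, or 2.25-fold lower without PBS replicate 2. These values rested on 4646 to 7922 counts in Akk and 12360 to 14721 counts in PBS. All 3 Akk libraries being below all 3 PBS libraries was seen for 65% of the listed genes, which had been selected on these libraries. Of the 1040 genes listed as lower, 901 showed it.

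PBS replicate 2 was close to the other PBS libraries for Car4. It had 1.16 times the mean of PBS replicates 1 and 3, where the median over the 1040 genes listed as lower was 5.77 times. Of those genes, 1020 had a larger excess in PBS replicate 2 than Car4 and 19 had a smaller one. The fitted log2 fold change of Car4 was -1.23 (SE 0.41, Akk over PBS) with all 6 libraries and -1.16 (SE 0.29) without PBS replicate 2. Over all genes listed as lower the median was -2.19 with all 6 libraries and -0.78 when PBS replicate 2 was left out. Thus 982 of the 1040 had a more negative log2 fold change than Car4 with all libraries, and 148 without PBS replicate 2.

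Within the Akk group Car4 varied more than within PBS. The coefficient of variation of its FPKM was 33.3% in Akk and 10.8% in PBS, and Akk replicate 3 was the highest Akk library. That library was also the highest of all 6 for S100g, Slc40a1 and Cybrd1, 3 of the 4 listed duodenal genes. S100g, a calcium-binding protein of duodenal enterocytes, had an FPKM of 5.58, 12.9 and 97.7 in Akk replicates 1 to 3, and 9.56, 11.1 and 3.62 in PBS replicates 1 to 3. Without Akk replicate 3 the log2 fold change of Car4 was -1.52. The part of gut segment in the Car4 values was not tested.

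Aqp4 (ENSMUSG00000024411, chromosome 18, 15389496 to 15410982, minus strand, GRCm38) was scarce in all libraries but one. Its FPKM was 0.156, 0.0579 and 0.134 in Akk replicates 1 to 3, against 0.307, 9.11 and 0.408 in PBS replicates 1 to 3. PBS replicate 2 had 25.5 times the mean of PBS replicates 1 and 3, and 29 of the 1040 genes listed as lower had a larger excess there. The means were 0.116 ± 0.0516 FPKM in Akk and 3.28 ± 5.06 FPKM in PBS (SD, n = 3 each), so the spread in PBS exceeded the PBS mean. Without PBS replicate 2 the PBS mean was 0.358 FPKM, and Aqp4 was 3.08-fold lower in Akk.

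The counts behind Aqp4 were few. They were 34, 12 and 25 in Akk replicates 1 to 3 and 57, 1481 and 81 in PBS replicates 1 to 3. Exact Poisson 95% intervals, which cover counting error only, ran from 0.0299 to 0.101 FPKM in Akk replicate 2 and from 0.108 to 0.219 FPKM in Akk replicate 1. In PBS replicate 1, the lowest PBS library, the interval was 0.233 to 0.398 FPKM. The groups did not overlap, and the lowest PBS value exceeded the highest Akk value by 1.97-fold. All 3 Akk libraries were below all 3 PBS libraries for 65% of the listed genes, which had been selected on these libraries. That was so for 901 of the 1040 genes listed as lower. In the order of levels, the intervals of Akk replicates 2 and 3, of Akk replicates 3 and 1, and of PBS replicates 1 and 3 overlapped, so these neighbours were not resolved at this depth.

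**Figure D1:**
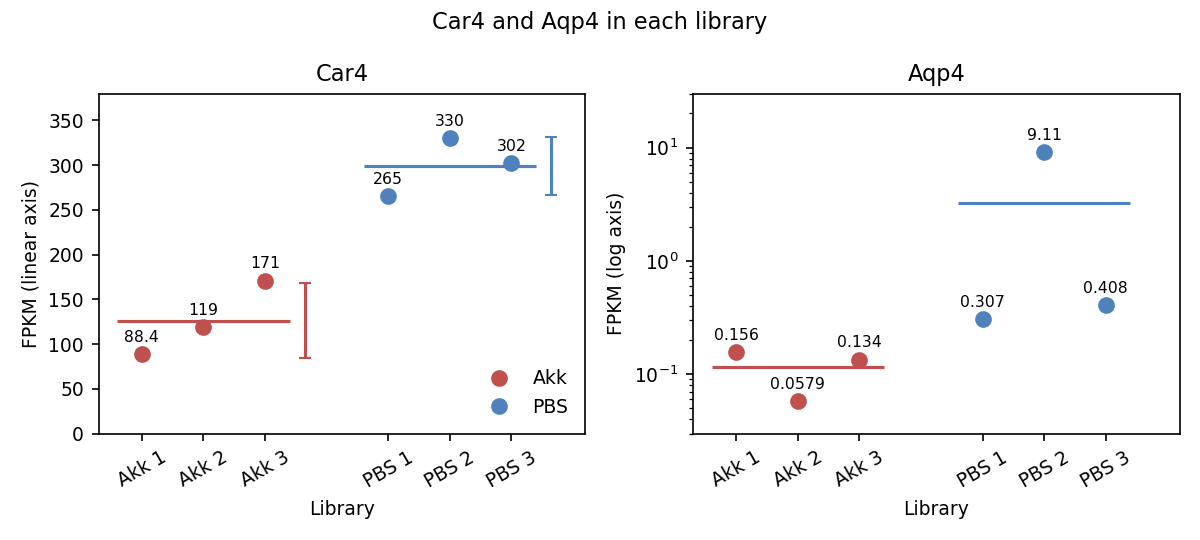
FPKM of Car4 (left, linear axis) and Aqp4 (right, log axis) in each of the 3 Akk and 3 PBS libraries; points are libraries, horizontal lines are group means and the bars beside the Car4 points are SD. For Car4 the Akk libraries sit between 88.4 and 171 and the PBS libraries between 265 and 330, while for Aqp4 PBS replicate 2 (9.11) is far above the other 5 libraries.

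The fitted log2 fold change of Aqp4 was -4.72 (SE 1.47) with all 6 libraries and -1.58 (SE 0.46) without PBS replicate 2. With all libraries 8 of the 1040 genes listed as lower had a more negative value than Aqp4, and 34 did without PBS replicate 2. The authors' deposited table gives a log2 fold change of -1.78 for Aqp4, with a p-value of 0.000684, and of -0.78 for Car4, with a p-value of 0.0101. Both are nearer to 0 than the ratio of the means in the same table, whose log2 was -4.82 for Aqp4 and -1.25 for Car4. How the authors computed their fold change is not given in the sources used here.

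**Figure D2:**
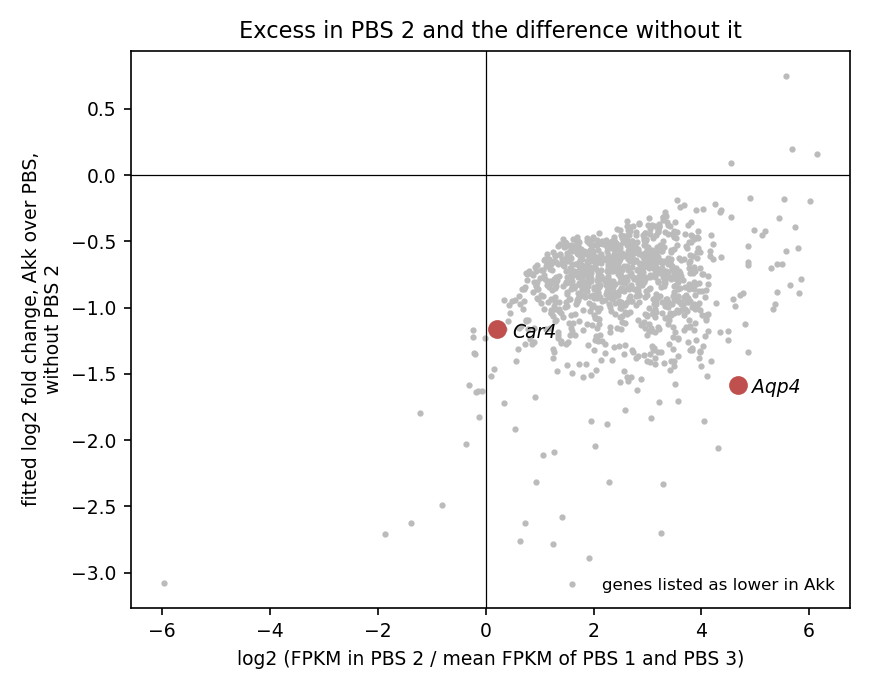
Each grey point is 1 of the 1040 genes listed as lower in Akk; the horizontal axis is the log2 of FPKM in PBS replicate 2 over the mean of PBS replicates 1 and 3, and the vertical axis is the fitted log2 fold change (Akk over PBS) without PBS replicate 2. Car4 lies near the left edge of the cloud (1.16 times) and Aqp4 near the right edge (25.5 times), and both are below 0 on the vertical axis (-1.16 and -1.58).

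The size of the Car4 difference depended on the scaling. With the recovered depth as library size the median log2 fold change of all listed genes was -1.85. Scaling factors computed from the listed genes themselves put that median at -0.63 (upper quartile), -0.21 (TMM) and -0.15 (RLE). Relative to the median of each scaling, Car4 lay at 0.62 with the recovered depth, 0.11 with upper-quartile, 0.03 with TMM and -0.01 with RLE factors. Aqp4 lay at -2.87, -2.29, -2.18 and -2.12 in the same order. All of these values include PBS replicate 2. Without it and with the recovered depth, the median of all listed genes was -0.66, and Car4 lay at -0.50 and Aqp4 at -0.92 relative to it. With the recovered depth, Car4 was thus above the median of the table with PBS replicate 2 and below it without. With TMM and RLE factors it lay near the median (0.03 and -0.01) with PBS replicate 2 included. With all 6 libraries and not set against the median, both genes stayed negative under all 4.

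**Figure D3:**
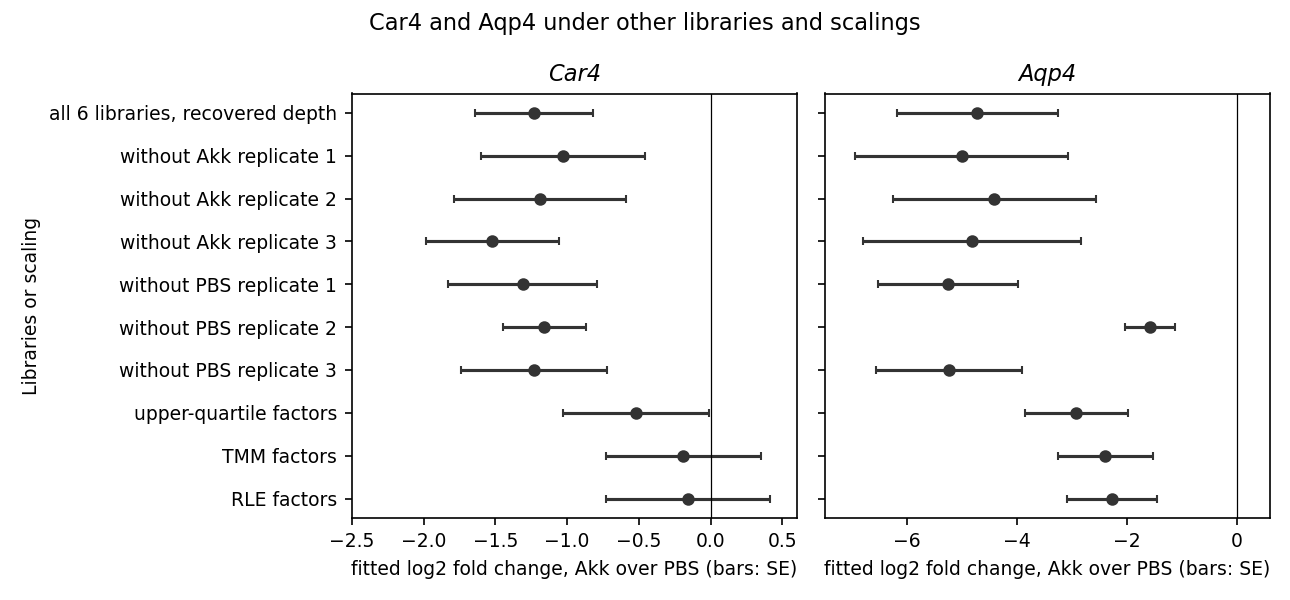
Fold changes of Car4 and Aqp4 on the log2 scale (Akk over PBS, from the edgeR fit) with all 6 libraries, with each library left out, and with scaling factors from the listed genes; points are estimates and bars are SE. Car4 runs from -1.52 to -1.03 over the left-out libraries but lies at -0.19 and -0.16 with TMM and RLE factors, and Aqp4 is nearest to 0 without PBS replicate 2 (-1.58).

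The ratio of counts to FPKM also shows over what length the authors spread the reads. It implied 1771 to 1796 bases for Car4 and 6926 to 7552 bases for Aqp4, on a scale set by the exon lengths of other listed genes. In the GENCODE M21 annotation the exons of Car4 cover 1966 bases and its longest transcript has 1256. The exons of Aqp4 cover 6233 bases, and the longest of its 11 transcripts has 5054. The implied lengths thus exceeded the longest annotated transcript of both genes. For Car4 they lay below the 1966 bases of its exons, while for Aqp4 they exceeded the 6233 bases of its exons in every library. Those of Aqp4 ran from 7253 to 7552 bases in Akk and from 6926 to 7262 bases in PBS. They rested on few counts in every library but PBS replicate 2, which had 1481 counts and also exceeded the exon length (6926 bases). An antisense gene, AC133525.2, overlaps the 5′ part of Aqp4 on the plus strand. The strand setting of the counting is not given in the sources used here, so reads of these 2 genes could not be told apart.

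Of 16 carbonic anhydrase genes, 3 were listed, and Car4 was the highest of them in every library. Car9, a membrane-spanning carbonic anhydrase, had an FPKM of 13.7, 13.4 and 15.0 in Akk replicates 1 to 3, against 26.8, 40.4 and 24.2 in PBS replicates 1 to 3. Car2, a cytosolic one, had 14.6, 16.8 and 13.5 FPKM in Akk replicates 1 to 3, against 6.82, 2.67 and 10.2 FPKM in PBS replicates 1 to 3. Car9 was thus below all PBS libraries in each Akk library, as were 65% of the listed genes and 901 of the 1040 listed as lower. Car2 was above them, as were 9.38% of the listed genes, or 130 of the 346 listed as higher. Car4 made up 75.8%, 79.7% and 85.7% of the summed FPKM of the 3 enzymes in Akk replicates 1 to 3, against 88.8%, 88.4% and 89.8% in PBS replicates 1 to 3. The log2 fold change was -1.12 (SE 0.47) for Car9, which turned to 0.06 with TMM and 0.09 with RLE factors, and 1.19 (SE 0.67) for Car2, which stayed positive under each scaling. Without PBS replicate 2 they were -0.86 (SE 0.18) and 0.80 (SE 0.25).

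No other aquaporin of 12 was listed. Among 34 transporters and channels of acid, base and chloride, 4 were listed, 3 as higher and 1 as lower. Slc9a3, the apical sodium-proton exchanger, had an FPKM of 150, 169 and 36.5 in Akk replicates 1 to 3, against 44.7, 40.8 and 65.2 in PBS replicates 1 to 3. Akk replicate 3, the Akk library with the most Car4, was the lowest of all 6 libraries for Slc9a3, and the groups overlapped. Pdzk1, a scaffold of brush border transporters, averaged 125 ± 23.3 FPKM in Akk and 59.9 ± 42.7 in PBS, and Clca4a, of the calcium-activated chloride channel regulator family, 203 ± 90.1 in Akk and 68.2 ± 50.3 in PBS (SD, n = 3 each). Both also overlapped between the groups and were lowest in PBS replicate 2. Cftr, the apical chloride channel, had 3.67, 3.52 and 6.85 FPKM in Akk replicates 1 to 3, against 9.82, 36.3 and 9.21 FPKM in PBS replicates 1 to 3. Its Akk values were all below its PBS values, as for 65% of the listed genes and 901 of the 1040 listed as lower. The log2 fold change of Cftr was -1.97 (SE 0.67), and -1.02 (SE 0.32) without PBS replicate 2.

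All 6 listed genes of 28 in the sodium and potassium list had the lower direction. PBS replicate 2 held the top value of every one. The lower direction held for 1040 of all 1386 listed genes, and 1022 of these had their top value in PBS replicate 2. Whether the 6 genes differ from these shares was not tested. Slc12a2, the basolateral sodium-potassium-chloride cotransporter that loads chloride for secretion, had an FPKM of 0.609, 0.807 and 0.531 in Akk replicates 1 to 3, against 1.40, 52.8 and 1.15 in PBS replicates 1 to 3. Its pattern resembled that of Aqp4, with 41.3 times the mean of PBS replicates 1 and 3 in PBS replicate 2. Its log2 fold change was -4.82, and -0.98 without that library. Kcnq1 and Kcne3, the pore and the accessory subunit of a basolateral potassium channel, averaged 1.27 ± 0.352 and 1.43 ± 0.635 FPKM in Akk and 13.0 ± 17.3 and 24.9 ± 37.8 FPKM in PBS (SD, n = 3 each). Without PBS replicate 2 the PBS means were 2.98 FPKM for Kcnq1 and 3.06 FPKM for Kcne3. Kcnn4, a calcium-activated potassium channel, had 1.49 ± 1.05 FPKM in Akk and 10.9 ± 13.6 FPKM in PBS (SD, n = 3 each), and the groups overlapped. Its PBS mean was 3.10 FPKM without PBS replicate 2, and its log2 fold change was -1.04 (SE 0.60) in place of -2.86 (SE 1.12). Slc12a8, a member of the cation-chloride cotransporter family, and Fxyd3, a regulator of the sodium pump, were lower in Akk without overlap. The same held for 65% of the listed genes and for 901 of the 1040 listed as lower. Slc12a8 and Fxyd3 had log2 fold changes of -1.29 (SE 0.64) and -1.41 (SE 0.70) that turned positive with TMM and with RLE factors. Without PBS replicate 2 these were -0.56 (SE 0.25) and -0.63 (SE 0.26). Of 15 genes of secretion signalling, Ptger4, a prostaglandin E2 receptor, was listed as higher. It had 10.5 ± 4.96 FPKM in Akk and 6.93 ± 0.971 in PBS (SD, n = 3 each), with overlapping groups. Akk replicate 3 was its highest library (15.9 FPKM). Its log2 fold change was 0.61 (SE 0.55), 0.18 without that library and 0.54 without PBS replicate 2.

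**Figure D4:**
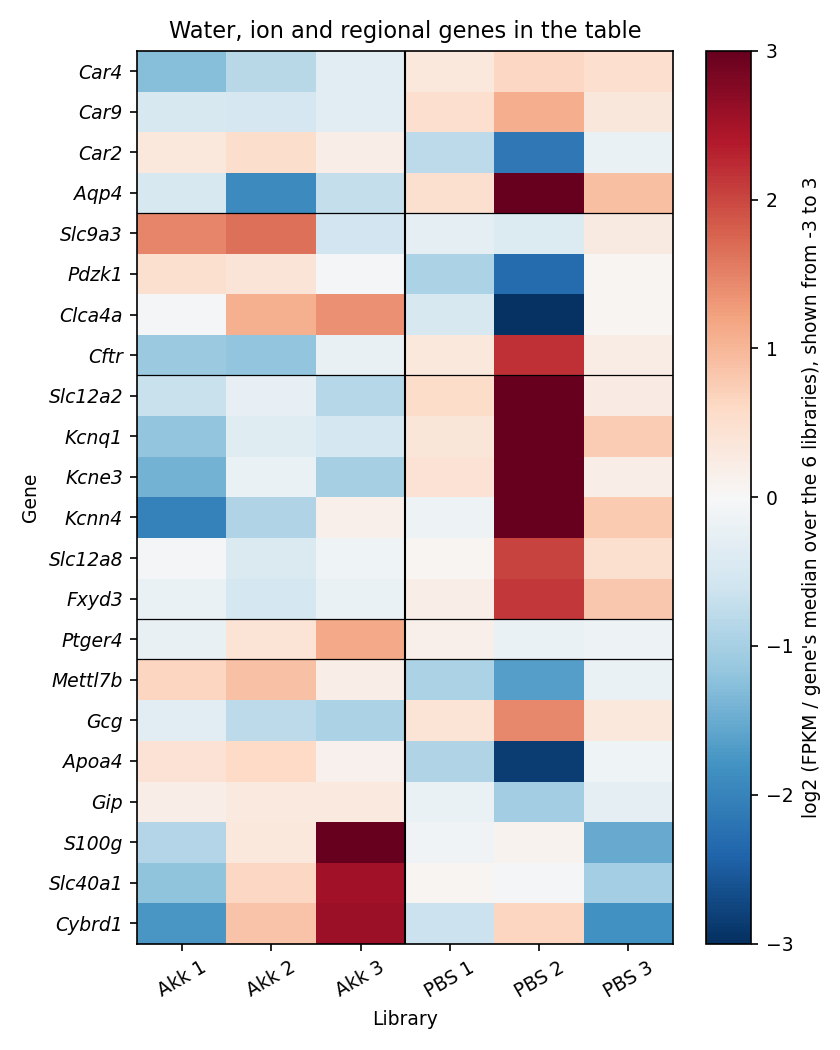
Listed water, ion and regional genes (rows) in each library (columns, Akk left of PBS), coloured by log2 of FPKM over the gene's median of the 6 libraries, with colours capped at -3 and 3. Aqp4, Slc12a2, Kcnq1, Kcne3 and Kcnn4 are deep red in PBS replicate 2, Car4 shows a step between the groups without such a peak, and S100g, Slc40a1 and Cybrd1 are highest in Akk replicate 3.

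Tested over all 1386 genes by edgeR's quasi-likelihood test with Benjamini-Hochberg adjustment, 0 genes passed with all 6 libraries (0% of those tested; 791 had an unadjusted p under 0.05, and DESeq2 called 786 and limma-voom 2). Without PBS replicate 2, 270 genes passed, 19.5% of those tested, 1.73% as higher and 17.7% as lower. The 5 water and ion lists hold 103 genes besides Car4 and Aqp4, of which 13 were listed, 5 as higher and 8 as lower. Of these 13, 0 passed with all libraries, and Car9, Kcnq1 and Slc12a2 passed as lower without PBS replicate 2. Their log2 fold changes had a median of -1.29 with all libraries and of -0.63 when PBS replicate 2 was left out, beside -1.85 and -0.66 over all listed genes. It turned to 0.09 with TMM and 0.14 with RLE factors. All of these genes had been selected on these libraries.

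Among regional genes, Car4, Aqp4 and Mettl7b were listed of 13 on the colonic list. Mettl7b, a methyltransferase-like protein, was listed as higher, with 18.8 ± 4.27 FPKM in Akk and 7.03 ± 3.47 FPKM in PBS (SD, n = 3 each). The other 10 colonic genes, among them Car1, Aqp8 and Slc26a3, were not listed. Of 12 ileal genes only Gcg, which encodes proglucagon, was listed, with 2.60 ± 0.630 FPKM in Akk and 7.22 ± 3.39 FPKM in PBS (SD, n = 3 each). Gcg passed the edgeR test without PBS replicate 2 as lower, as 17.7% of all listed genes did, while 0 genes passed with all 6 libraries. All listed genes had been selected on these libraries, so this pass gives no separate support.

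Proximal genes were listed as higher. Of 11 duodenal genes these were S100g, Slc40a1, Cybrd1 and Gip, and of 8 jejunal genes Apoa4. Slc40a1, the iron exporter, had an FPKM of 1.35, 4.79 and 17.9 in Akk replicates 1 to 3, against 3.26, 3.02 and 1.56 in PBS replicates 1 to 3. Without Akk replicate 3 the log2 fold changes of S100g, Slc40a1 and Cybrd1 were 0.19, 0.14 and 0.34, in place of 2.25, 1.64 and 1.67 with all libraries. Gip, a hormone of upper intestinal endocrine cells, had 63.8, 67.2 and 67.7 FPKM in Akk replicates 1 to 3, against 47.9, 26.7 and 45.9 FPKM in PBS replicates 1 to 3. Its log2 fold change was 0.70 without Akk replicate 3, beside 0.72 with all libraries. Apoa4, a chylomicron apolipoprotein, had 1.42 without that library, beside 1.30 with all libraries. PBS replicate 2 was the lowest of all 6 libraries for Gip and for Apoa4 (467 FPKM, against 1811 and 3101 in PBS replicates 1 and 3). Their log2 fold changes fell to 0.5 (SE 0.17) for Gip and 0.85 (SE 0.34) for Apoa4 without PBS replicate 2. Those of S100g, Slc40a1 and Cybrd1 rose in that setting. For Gip and Apoa4 every Akk value exceeded every PBS value, and for the other 3 the groups overlapped. Such separation was seen for 130 genes, 9.38% of those listed, all among the 346 listed as higher. The log2 fold change of Car4 was negative with Akk replicate 3 and without it. Leaving out 1 library cannot test the part of gut segment in these values, which was not tested. Of the 5 proximal genes 0 passed the edgeR test with all 6 libraries, where 0% of all genes did, or without PBS replicate 2, where 1.73% of all genes passed as higher, so the count of 0 does not set these genes apart.

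Car4 and Aqp4 were also compared with each other and with the rest of the table across libraries. Over the 6 libraries the Pearson correlation of log2(CPM + 0.5) between Car4 and Aqp4 was 0.68, and it was 0.78 over the 5 libraries without PBS replicate 2. Of 1321 other genes with an identifier and a mean CPM of at least 1, 34 reached a correlation of 0.9 with Car4, and 929 did so with Aqp4. Without PBS replicate 2 the counts were 335 for Car4 and 179 for Aqp4, so which gene had more look-alikes turned on that library. The genes most like Car4 were Rflnb (0.980), Zfp791 (0.973), Pir (0.972), Papln (0.971), Susd1 (0.966) and March9 (0.965). Those most like Aqp4 were Lrig1 (0.999), Fancd2 (0.998), Fxyd3 (0.998), Fam111a (0.998), Prc1 (0.997) and 0610010F05Rik (0.997). All points come from the same 6 libraries and the genes had been selected for a difference between these groups, so high correlations are built into the table.

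Of the genes nearest to Car4, Susd1 averaged 0.155 ± 0.0396 FPKM in Akk and 0.471 ± 0.0732 FPKM in PBS (SD, n = 3 each), with 0.903 times the mean of PBS replicates 1 and 3 in PBS replicate 2. Pir had 0.199 ± 0.120 FPKM in Akk and 1.45 ± 0.449 FPKM in PBS (SD, n = 3 each), and Rflnb had 5.07 ± 1.23 and 11.1 ± 2.30 FPKM in the same groups. In PBS replicate 2 the 6 genes nearest to Car4 had 0.903 to 2.09 times the mean of PBS replicates 1 and 3, against 2.98 to 10.8 times for the 6 genes nearest to Aqp4. That contrast follows from how they were chosen, since Car4 and Aqp4 themselves had 1.16 and 25.5 times.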

How the data were processed

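RNA of intestinal epithelial cells was measured in 3 Akk and 3 PBS libraries. Total RNA was taken with Trizol for an Illumina mRNA library, per the labels' protocols, and the build is mm10, per the submitters' processing notes. No aligner, counter, annotation or strand setting is stated in those sources. The authors deposited whole-number read counts and FPKM per library, and per gene a log2 fold change and its p-value, per the file headers. The table holds 1386 genes (346 listed as higher, 1040 as lower), with a largest p-value of 0.0498 and a smallest fold of 1.5 in the authors' deposited table, so it holds genes selected on these libraries. Left out were 2 lines of annotation text. The 1322 Ensembl identifiers were all found in GENCODE M21 of GRCm38, the assembly that mm10 names, and 64 loci have no gene name; 1 symbol stored as a date was taken from its identifier.

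Depth was recovered from count over FPKM in 560 genes with at least 200 counts in each library, and exon lengths of 548 set its scale. Counts were fitted with edgeR 4.0.16 (R 4.3.3, quasi-likelihood, filterByExpr, no replicate term), Akk against PBS, with this depth as library size and Benjamini-Hochberg adjustment at 0.05 over all 1386 genes, which all passed the filter. The SE is the log2 fold change divided by the square root of its F statistic. The procedure was tested on simulated data with 200 changed genes. The simulation had less spread between replicates than these data and no library like PBS replicate 2, so it does not cover these conditions. Alternatives were TMM, RLE and upper-quartile factors, other count filters, a replicate block, DESeq2 1.42.0, limma-voom 3.58.1, FPKM ratios and each library left out. Named were Car4, Aqp4, every listed member of the water, ion and regional lists, and the 6 genes most correlated with each of Car4 and Aqp4; an item of the regional lists is not reported here, and markers named otherwise were chosen after their values were seen. Members and lists were chosen with earlier results of these data known. Positions relative to the median and counts of correlated genes without PBS replicate 2 were added after seeing the data.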

Additional observations from a re-analysis of the deposited data

How the results depend on the processing

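The log2 fold changes of Car4 and Aqp4 stayed negative under all alternatives run. Car4 was -1.23 and lay at -0.52 (SE 0.51) with upper-quartile, -0.19 (SE 0.54) with TMM and -0.16 (SE 0.57) with RLE factors. Such factors rest on most genes being equal, and here every gene was selected for a difference. Its other alternatives moved it by less than the spread between replicates, with -1.52 to -1.03 over the left-out libraries. With the recovered depth, Car4 relative to the median of all listed genes was 0.62 with all libraries and turned to -0.50 without PBS replicate 2. That median was -1.85 with all libraries and -0.66 without it. Aqp4 was -4.72 and lay at -2.39 with TMM, -2.27 with RLE factors and -2.74 with the replicate block, and at -5.26 to -1.58 over the left-out libraries. As a difference of mean log2 FPKM it was -2.55 with a pseudocount of 0.1 and -1.25 with a pseudocount of 1, which draws low values together.

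The count of 0 genes past the edgeR threshold became 6 with the replicate block, 786 with DESeq2 and 2 with limma-voom, and 0 to 734 over the left-out libraries (leaving out PBS replicate 1 gave 734, PBS replicate 2 270 and PBS replicate 3 732). For these counts the cause was not tested. Filters on low counts removed no gene. Same-numbered libraries had correlations of 0.24, -0.08 and -0.3 between their deviations from the group means. Of 6 libraries, 1 correlated best with its own number. No pairing by number was seen, but PBS replicate 2 dominates the PBS deviations, so this check cannot exclude pairing. The median correlation of the 6 genes nearest to each was 0.971 for Car4 and 0.998 for Aqp4; Spearman's rho gave 0.971 and 0.943, and the 5 libraries without PBS replicate 2 gave 0.987 and 0.986. At 12 to 81 counts in 5 of the libraries, counting error limits the values of Aqp4.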
